A study of Mus musculus with 14 samples.

Results

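The genes described here are 44 members of the TGF-beta and BMP pathways and of the mesenchymal transition programme, taken by symbol from a table of 55335 genes: 9 ligands, 8 receptors, 6 receptor-activated and common SMADs, 4 inhibitory SMADs and SKI repressors, 4 secreted antagonists, 3 latent TGF-beta binding proteins, 3 ID genes, 5 transition factors and 2 contractile genes. Of these, 43 had enough counts to be tested, together with 21509 genes in all, and the 44th, Smad9, had at most 0.142 CPM in any library (CPM: counts scaled to a common library size). RNA was sequenced from marrow cells of Cdh5 CRE Rosa26 TdTomato mice, in which Cre driven by the VE-cadherin gene switches on a permanent red label in endothelial cells and in whatever descends from cells that once used that promoter. The sort gate, as labelled, took TdTomato-positive cells negative for CD45 and lineage markers, and all groups share this genotype and gate. The 14 libraries comprised 4 from untreated mice, 5 from mice given 500 cGy of total body irradiation from a cesium source (TBI; replicates 1, 3, 4, 5 and 6), 3 from mice given 20 µCi of a non-targeted radiolabelled IgG (IgG RIT) and 2 from mice given 20 µCi of radioimmunotherapy directed at CD45, the pan-leukocyte surface protein (CD45 RIT), with astatine-211, named in the series title, as the radionuclide. Treated marrow was harvested 8 days after treatment. The age and sex of the mice, and whether libraries came from separate or pooled animals, were not given in the sources used here, so p-values measure the spread between these libraries, which may be partly technical.

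TGF-beta family ligands are secreted as dimers that bind paired serine-threonine kinase receptors, and these phosphorylate SMAD proteins that enter the nucleus with SMAD4. TGF-beta and activin act mainly through SMAD2 and SMAD3, whereas BMPs act through SMAD1, SMAD5 and SMAD9 and switch on the ID genes. SMAD6, SMAD7, SKI and SKIL restrain the response, secreted antagonists bind ligands outside the cell, and latent binding proteins hold TGF-beta in the matrix until it is released. In marrow, TGF-beta is known for restraining haematopoietic stem cell division and BMPs for driving bone formation. Snail, Twist and Zeb factors repress cell-junction genes, including in the conversion of endothelial to mesenchymal cells.

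The libraries held 16412779 to 31077588 counts each. The labelled cell type was checked against its markers first. Cdh5, which encodes VE-cadherin and drives the Cre, had 0 to 6 counts in untreated libraries, 0 to 5 in TBI libraries and 0 in all 5 RIT libraries. Ptprc, which encodes the CD45 that the gate selects against, had 1578 to 3273 counts (47.2 to 85.8 CPM) in untreated, 71 to 1424 in TBI, 78 to 286 in IgG RIT, and 1 and 662 in CD45 RIT replicates 1 and 2. Ptprc RNA was thus counted despite the gate, at levels that differed by group. Its part in the members' changes was not tested. Pecam1, a junction protein of endothelial and some blood cells, had 894 to 1957 counts in untreated, 44 to 820 in TBI, 72 to 171 in IgG RIT, and 4 to 6 in CD45 RIT. In CD45 RIT, 6 of the 20 endothelial markers listed were without a count in either library: Cdh5, Emcn, Tek, Tie1, Stab2 and Sox17. Of the 14 tested, 4 were called higher in CD45 RIT than in untreated and 4 lower, beside 14.5% and 18.6% of all genes. Higher were Kdr (1 and 2390 counts), Flt4 (0 and 1306), Plvap (223 and 2561) and Stab1 (341 and 1530). All 4 had more counts in replicate 2. Lower were Pecam1, Tie1, Erg and Egfl7. The list summed to 130 to 157 CPM in untreated, 56.9 to 113 in TBI, 38.1 to 49.99 in IgG RIT, and 44.6 and 454 CPM in CD45 RIT (replicates 1 and 2). The cells are therefore called here by their sort gate. A list of 14 marrow stromal markers was led by Cxcl12, Col1a1 and Col1a2 and also held Adipoq, Vcam1 and Lepr. It summed to 2583 to 6466 CPM in untreated, 846 to 1841 in TBI, 388 to 1403 in IgG RIT, and 50090 and 70270 CPM in CD45 RIT. In CD45 RIT against untreated, 13 of its 13 tested genes were called higher, beside 14.5% of all genes. The 14th, Pdpn, had 0 counts in both CD45 RIT libraries. In TBI 8 of the 13, and in IgG RIT 3 of the 13, were called lower, beside 3.38% and 10.7% of all genes. No member described here is on this list or on any other marker list. The osteoblast list moved with it (638 to 1219 CPM in untreated, 187 to 271 in TBI, 110 to 364 in IgG RIT, 3457 and 12290 in CD45 RIT), and so did the mural list (8.98 to 15.1, 1.25 to 6.68, 1.74 to 6.77, and 93.5 and 207 CPM). The neutrophil list was lower in every treated group, at 8460 to 9885 CPM in untreated, 93.5 to 961 in TBI, 694 to 891 in IgG RIT, and 7.44 and 18.8 in CD45 RIT. It ran opposite to the stromal list in CD45 RIT only. The part of these lists in the members' changes was not tested, apart from the rescaling to the stromal list given further on. The erythroid list was 1478 to 2323 CPM in untreated, 4718 to 23420 in TBI, 19750 to 26440 in IgG RIT, and 20370 and 2656 CPM in CD45 RIT replicates 1 and 2. TBI replicate 6 stood apart from the other TBI libraries (Pearson r across genes 0.911 to 0.923, against 0.956 to 0.979 among the others), and the 2 CD45 RIT libraries correlated at only 0.673. Untreated libraries correlated at 0.906 to 0.944 among themselves, and IgG RIT libraries at 0.917 to 0.922.

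**Figure D1:**
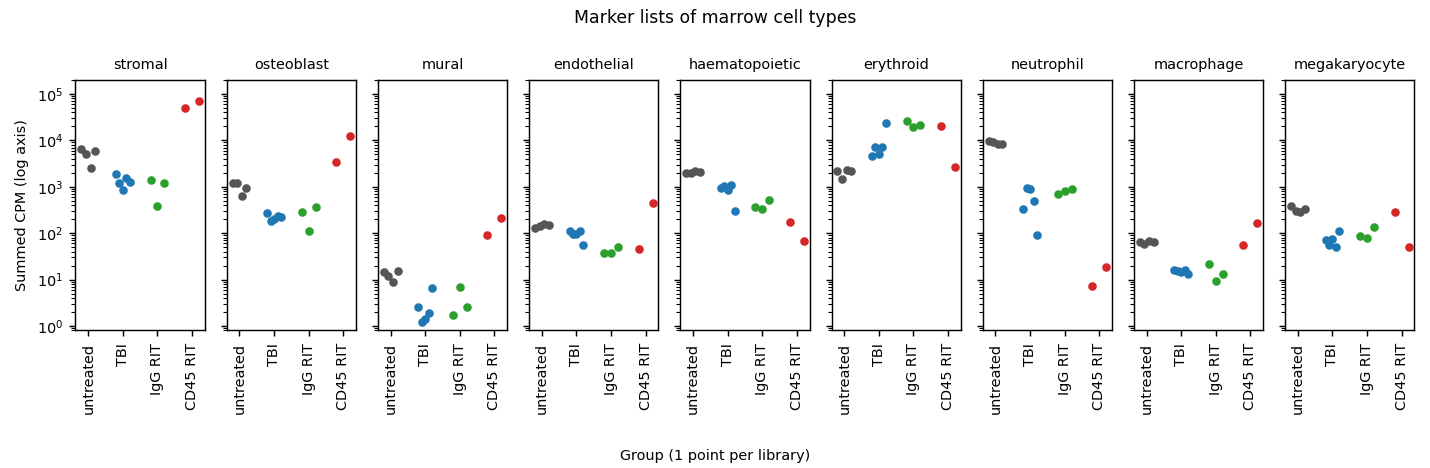
Summed CPM (log axis) of 9 marker lists of marrow cell types in each of the 14 libraries, by group, with 1 point per library. The stromal, osteoblast and mural sums are highest in the 2 CD45 RIT libraries and lie below untreated in the TBI and IgG RIT libraries, and the neutrophil sum is highest in the untreated libraries.

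In CD45 RIT, 29 of the 43 tested members were higher than in untreated and 1, Gdf3, was lower, whereas in TBI 6 were lower and 1, Gdf3, higher, and in IgG RIT 6 were lower. Calls are at a Benjamini-Hochberg adjusted p under 0.05 in edgeR's quasi-likelihood test over all 21509 genes. The same rule called 33.1% of all genes in CD45 RIT against untreated, 4.31% in TBI and 16.4% in IgG RIT, against which 30 of 43, 7 of 43 and 6 of 43 members are to be read: the IgG RIT count is near its background. By direction, 14.5% of all genes were called higher and 18.6% lower in CD45 RIT, 0.921% higher and 3.38% lower in TBI, and 5.75% higher and 10.7% lower in IgG RIT. Libraries did not overlap with untreated for 31 members higher and 2 lower in CD45 RIT (17.5% and 29.8% of all genes). In TBI this held for 1 member higher and 16 lower (6.34% and 12.8% of all genes). In IgG RIT it held for 0 higher and 17 lower (15.6% and 27.4% of all genes). The members' median log2 fold change was 3.59 in CD45 RIT (all genes -0.37), -1.46 in TBI (all genes -0.16) and -1.69 in IgG RIT (all genes -0.42, and -1.68 for the members with genes at 0 to 3 counts held at that floor). No member was called in both TBI and IgG RIT. All 6 members called lower in TBI, Bmp4, Bmp6, Smad6, Chrdl1, Fst and Ltbp2, were called higher in CD45 RIT, as were Smad7, Ski, Id3 and Twist1 of the 6 called lower in IgG RIT, and these comparisons share the untreated libraries. The members called in none of the 3 comparisons with untreated numbered 11: Tgfb1, Tgfbr1, Acvr1, Acvrl1, Smad2, Smad4, Smad5, Nog, Zeb1, Zeb2 and Acta2. Because the libraries are bulk samples, more or fewer cells of a type and more or less RNA per cell cannot be told apart here.

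**Figure D2:**
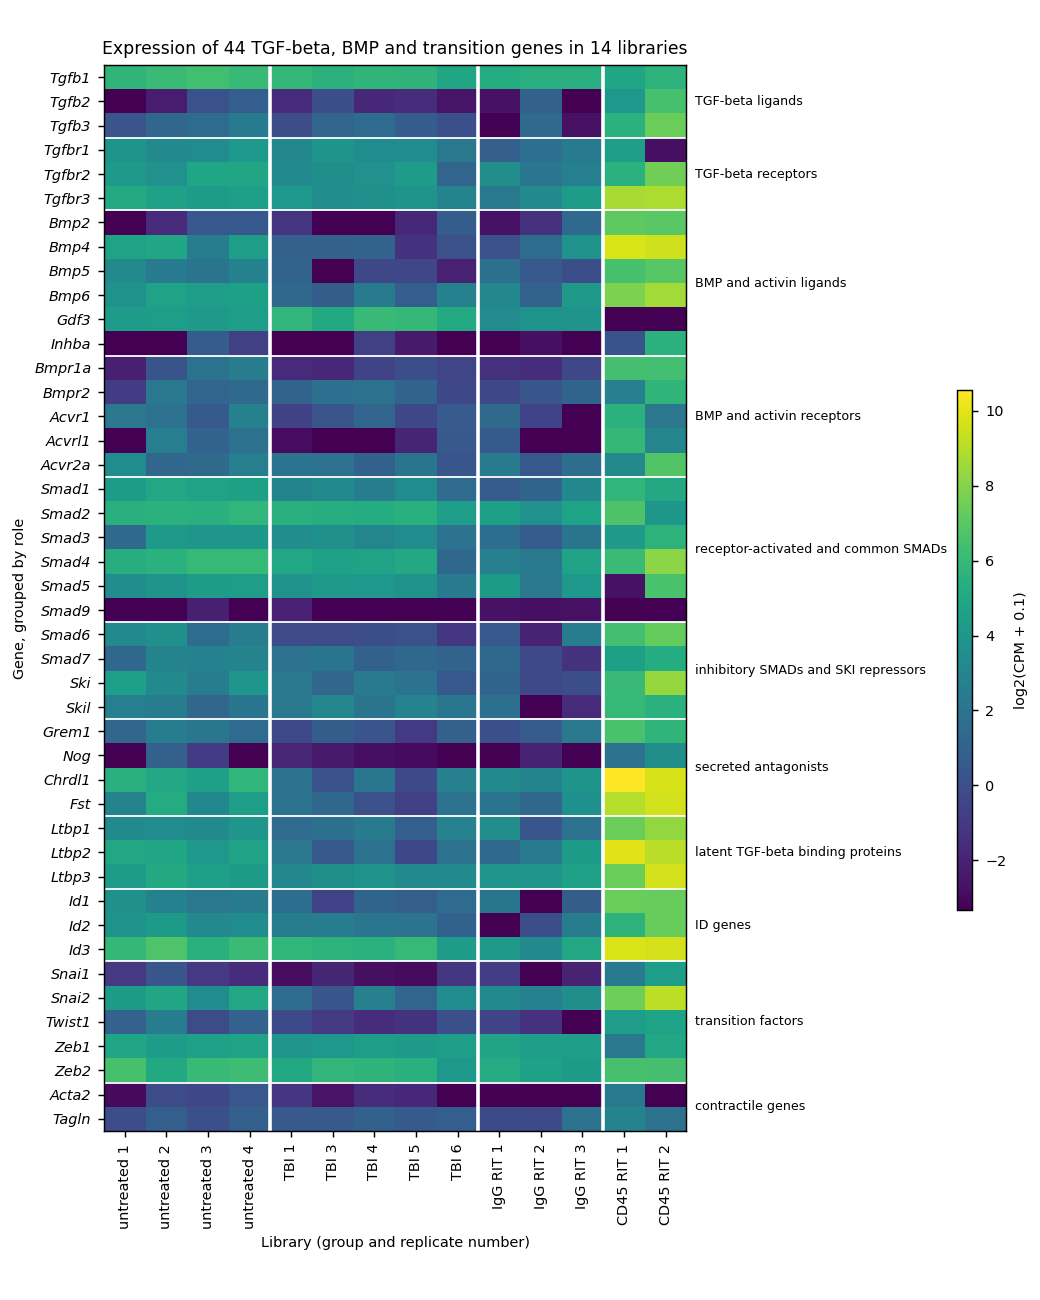
Level of each of the 44 members (rows, grouped by role) in each of the 14 libraries (columns, white lines between groups) as log2(CPM + 0.1). Most rows are brightest in the 2 CD45 RIT columns, Gdf3 is at 0 there, and Smad9 is near 0 throughout.

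**Figure D3:**
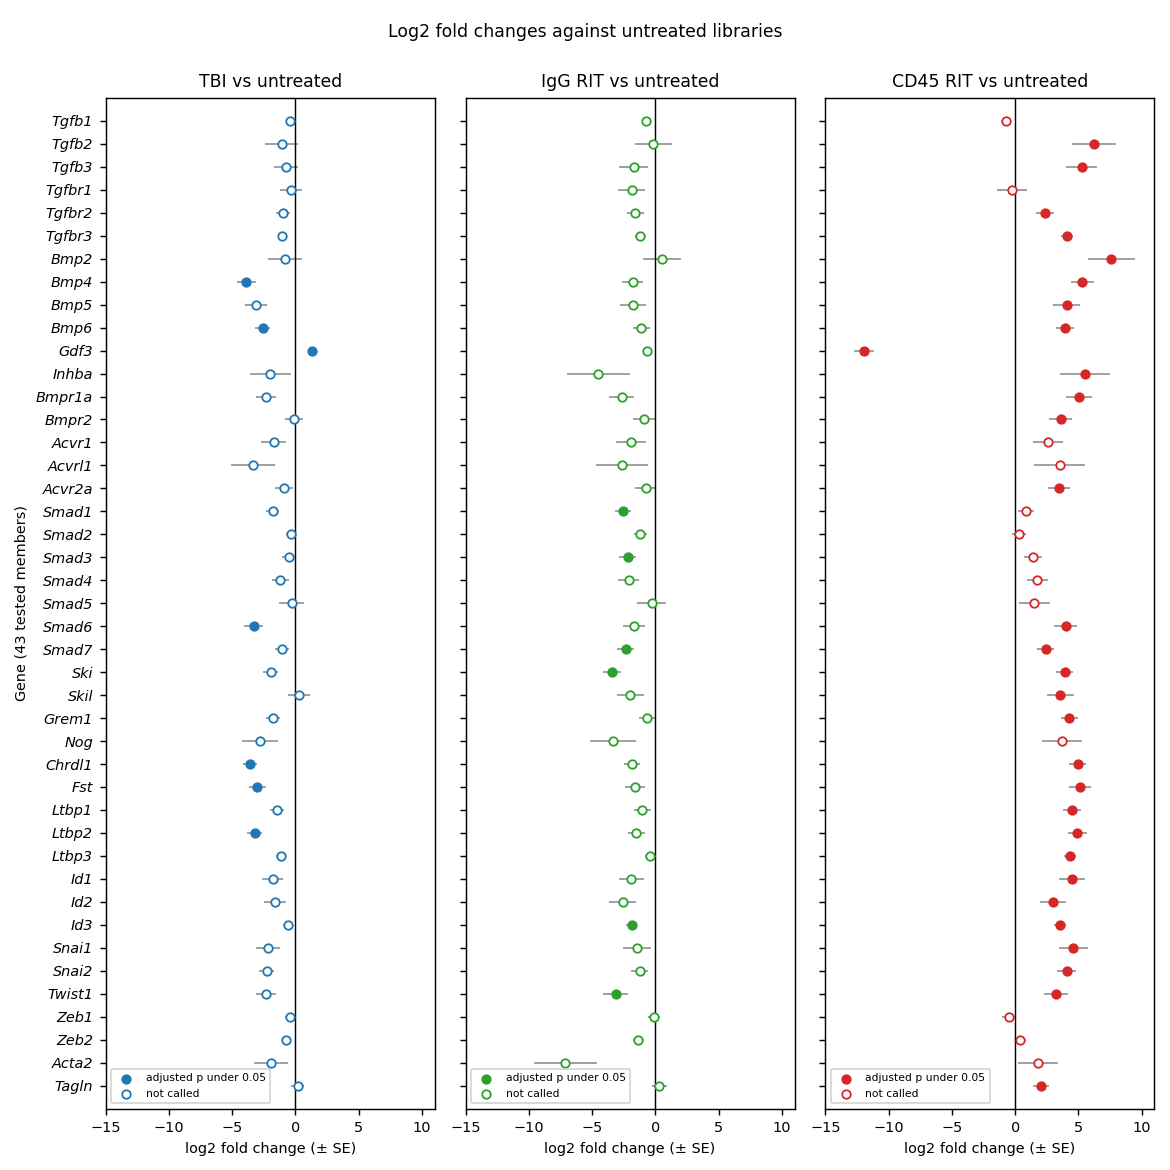
Log2 fold change against untreated (± SE) of the 43 tested members in TBI, IgG RIT and CD45 RIT; filled points have an adjusted p under 0.05. Filled points number 7, 6 and 30, and in CD45 RIT all of them but Gdf3 lie to the right of 0. The position of Gdf3 in CD45 RIT, and of Inhba, Nog and Acta2 in IgG RIT, rests on libraries with 0 to 3 counts and is set by the fit.

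Promoter sequence is shown for 4 members with different roles that were called higher in CD45 RIT: a TGF-beta ligand, a BMP ligand, a BMP antagonist and a transition factor. Each is the 250 bases before the RefSeq transcription start (GRCm38.p6), 5′ to 3′ on the gene's strand, in lower case with capitals for CAGAC (the SMAD-binding element with 1 flanking base), GGCGCC (a palindrome bound by BMP SMADs) and CACCTG (the E-box bound by Snail and Zeb factors), searched on both strands, so that CAGGTG is the E-box on the other strand. They lie at chr1:186705990-186706239 (minus strand), chr14:46390670-46390919 (minus), chr2:113758649-113758898 (minus) and chr2:167537945-167538194 (plus).
Tgfb2: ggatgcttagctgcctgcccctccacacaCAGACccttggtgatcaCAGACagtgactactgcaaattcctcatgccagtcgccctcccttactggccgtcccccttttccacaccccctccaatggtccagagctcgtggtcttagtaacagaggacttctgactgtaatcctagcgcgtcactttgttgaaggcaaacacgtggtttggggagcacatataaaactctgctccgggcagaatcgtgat
Bmp4: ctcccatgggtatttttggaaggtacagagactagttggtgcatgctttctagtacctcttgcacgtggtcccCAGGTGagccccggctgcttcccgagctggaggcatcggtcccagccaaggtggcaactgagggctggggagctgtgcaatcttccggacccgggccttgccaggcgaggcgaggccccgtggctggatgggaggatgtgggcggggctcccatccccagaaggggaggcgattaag
Grem1: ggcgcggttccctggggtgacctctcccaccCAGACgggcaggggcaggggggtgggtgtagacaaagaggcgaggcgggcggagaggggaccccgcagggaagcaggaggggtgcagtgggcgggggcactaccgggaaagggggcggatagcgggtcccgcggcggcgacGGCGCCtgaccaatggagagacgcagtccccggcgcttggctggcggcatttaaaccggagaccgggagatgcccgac
Snai1: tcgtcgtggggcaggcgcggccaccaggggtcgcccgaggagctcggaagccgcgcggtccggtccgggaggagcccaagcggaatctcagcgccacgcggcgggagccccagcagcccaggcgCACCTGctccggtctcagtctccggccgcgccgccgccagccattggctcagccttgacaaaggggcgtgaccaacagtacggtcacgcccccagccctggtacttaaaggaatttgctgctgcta
Tgfb2 carries CAGAC in 2 places, Bmp4 and Snai1 carry 1 E-box each, and Grem1 carries 1 CAGAC and 1 GGCGCC. RefSeq promoters were matched for 28 of the 44 members, 35 promoters in all. CAGAC was in 42.9% of the member promoters and in 42.2% of all 32851 promoters of this length. GGCGCC was in 22.9% against 9.6%, CACCTG in 14.3% against 17.2%, and the CArG box of contractile genes in 0 against 1.5%. A match describes the letters only.

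Among the TGF-beta ligands, Tgfb2 and Tgfb3 rose in CD45 RIT while Tgfb1 did not. Tgfb1, the main TGF-beta of blood and marrow, had 54.5, 68.9, 81.0 and 67.2 CPM in the 4 untreated libraries, 61.2, 48.9, 54.5, 51.99 and 29.9 in TBI, 38.3, 43.1 and 41.7 in IgG RIT and 29.2 and 50.7 in CD45 RIT. The IgG RIT and CD45 RIT values all lay below untreated, and TBI overlapped it. Its log2 fold changes were -0.46 ± 0.24 (SE) in TBI, -0.73 ± 0.28 in IgG RIT and -0.76 ± 0.32 in CD45 RIT, with edgeR adjusted p = 0.345, 0.0926 and 0.0838, so that none was called. Tgfb2, the isoform known for its part in endothelial-to-mesenchymal conversion in the heart, lies at chr1:186622792-186705989 and had 0, 0.120, 1.03 and 1.70 CPM in untreated, 0.212, 0.899, 0.191, 0.237 and 0.0718 in TBI, 0.0579, 1.84 and 0 in IgG RIT and 16.6 and 89.9 in CD45 RIT. Both CD45 RIT libraries stood above every other library, and the other 3 groups overlapped. The rise was 6.22 ± 1.73 (SE, edgeR adjusted p = 0.0167) on the log2 scale, and without CD45 RIT replicate 2 it was 4.60 and not called (adjusted p = 0.0646). Tgfb3, which acts in palate and matrix formation, went from 1.15, 2.27, 2.87 and 5.09 CPM in untreated to 46.6 and 169.7 in CD45 RIT, a log2 change of 5.25 ± 1.24 (SE, edgeR adjusted p = 0.00722). Neither was called in TBI or IgG RIT, where Tgfb3 had 0.885, 2.18, 2.81, 1.52 and 0.933 and 0, 2.54 and 0.0526 CPM. Per kilobase of exon, Tgfb1 made up 88.1% to 96.9% of the summed TGF-beta ligand level in untreated, 92.4% to 97.6% in TBI and 88.9% to 99.9% in IgG RIT, but 25.8% and 13.3% in CD45 RIT.

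**Figure D4:**
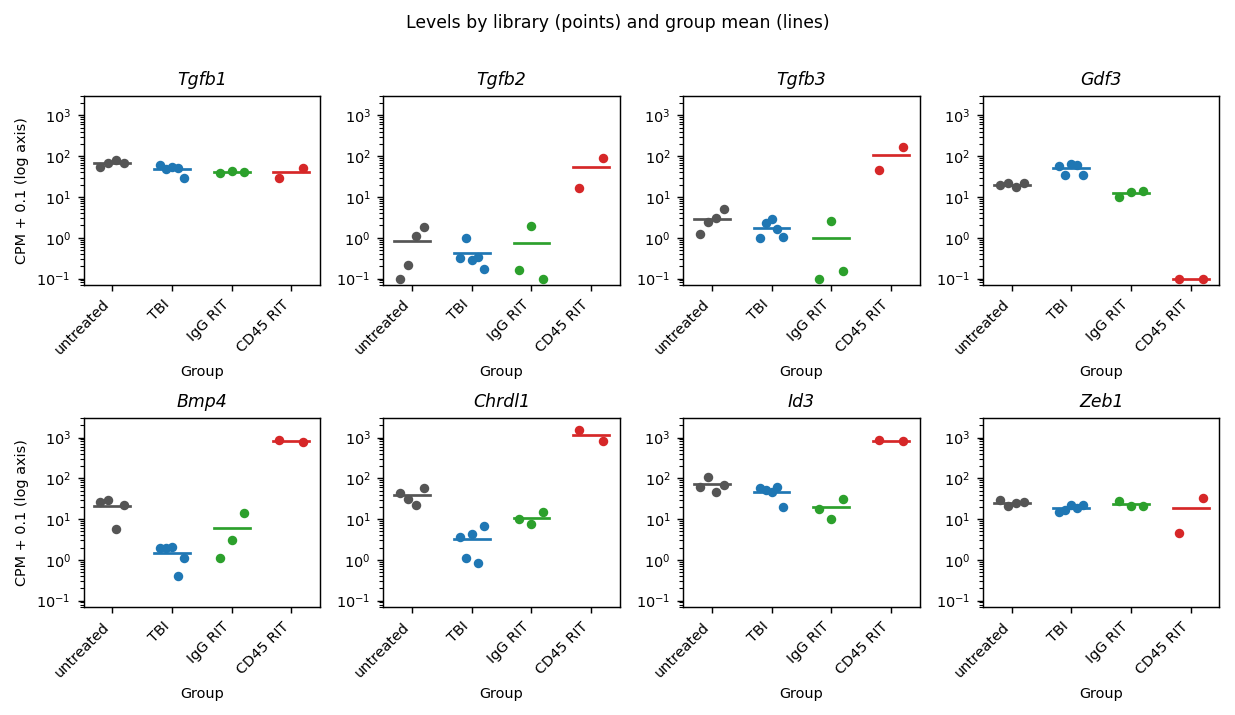
Level of 8 members as CPM + 0.1 (log axis) by group, with 1 point per library and a line at the group mean. Tgfb2, Tgfb3, Bmp4, Chrdl1 and Id3 are highest in both CD45 RIT libraries, Gdf3 is highest in TBI and at 0 in CD45 RIT, and the Zeb1 values of the 2 CD45 RIT libraries lie on either side of all others.

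Of the TGF-beta receptors, the co-receptor betaglycan (Tgfbr3) and the type II receptor (Tgfbr2) rose in CD45 RIT, and the type I receptor (Tgfbr1) was not called. Tgfbr3 had 35.03, 24.8, 20.4 and 22.6 CPM in untreated, 16.5, 11.2, 12.6, 14.3 and 7.32 in TBI, 4.69, 9.71 and 19.6 in IgG RIT and 429.5 and 457 in CD45 RIT. Both CD45 RIT libraries were far above the rest, with a log2 change of 4.11 ± 0.45 (SE, edgeR adjusted p = 5.3e-05), while all TBI and IgG RIT libraries lay below all untreated ones without being called (adjusted p = 0.121 and 0.071, edgeR). Tgfbr2 had 18.1, 12.9, 28.3 and 28.9 CPM in untreated and 45.98 and 184 in CD45 RIT, a change of 2.38 ± 0.70 (SE, edgeR adjusted p = 0.0215) that was not called without CD45 RIT replicate 2 (log2 1.11) or without untreated replicate 2 (log2 2.20). Tgfbr1 had 14.3, 9.70, 10.2 and 16.5 CPM in untreated and 21.1 and 0.0481 in CD45 RIT, where replicate 2 held 1 count.

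Bmp2, Bmp4, Bmp5 and Bmp6 all rose in CD45 RIT, and Bmp4 and Bmp6 fell in TBI. Bmp4, a bone-inducing BMP at chr14:46383520-46390669, had 25.9, 29.5, 5.68 and 21.9 CPM in untreated, 1.84, 1.80, 1.96, 0.305 and 1.00 in TBI, 0.985, 2.89 and 14.03 in IgG RIT and 864 and 755 in CD45 RIT. Every TBI library was below every untreated one, every CD45 RIT library was above all others, and IgG RIT overlapped both untreated and TBI. The log2 change was -3.90 ± 0.75 (SE, edgeR adjusted p = 0.0128) in TBI and 5.28 ± 0.91 (SE, edgeR adjusted p = 0.00108) in CD45 RIT. Bmp6, the BMP that endothelial cells of the liver use to set hepcidin, had 13.6, 24.96, 21.3 and 23.5 CPM in untreated, 2.48, 1.59, 5.11, 1.66 and 6.68 in TBI, 8.92, 1.99 and 18.3 in IgG RIT and 226 and 401 in CD45 RIT. Its fall in TBI was -2.58 ± 0.59 (SE, edgeR adjusted p = 0.0294), lost on leaving out any 1 of untreated replicates 2, 3 and 4 or TBI replicates 1, 3, 4 and 5, and its rise in CD45 RIT was 3.91 ± 0.72 (SE, edgeR adjusted p = 0.00173). Bmp2, which starts bone fracture repair, went from 0, 0.209, 1.24 and 1.32 CPM in untreated to 140.3 and 127 in CD45 RIT (log2 7.60 ± 1.84 SE, edgeR adjusted p = 0.00809), the largest fitted rise of any member against untreated. Bmp5 had 9.88, 5.30, 3.87 and 6.62 CPM in untreated and 90.5 and 126 in CD45 RIT (log2 4.07, adjusted p = 0.0121, edgeR), but 46.7% of its exon bases are shared with an opposite-strand gene and the counting is not stated to use strand, so its reads cannot be told apart from that gene's.

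In TBI and CD45 RIT, Gdf3 moved against the other ligands that were called. It encodes a BMP-family ligand known from pluripotent stem cells and from macrophages in fat and lies at chr6:122605403-122610087. Untreated libraries had 19.4, 21.3, 17.5 and 22.1 CPM, TBI 55.9, 34.5, 64.6, 59.4 and 35.4, IgG RIT 10.1, 13.1 and 14.3, and both CD45 RIT libraries 0 counts. The 4 groups did not overlap: TBI was highest, then untreated, then IgG RIT, then CD45 RIT. The rise in TBI was 1.31 ± 0.28 (SE, edgeR adjusted p = 0.0224) on the log2 scale, and the IgG RIT difference from untreated, -0.68 ± 0.31 (SE, edgeR adjusted p = 0.149), was not called. Against a floor of 3 counts per library, CD45 RIT was at least 123-fold lower than untreated (edgeR adjusted p = 3.46e-06). The TBI call was lost without any 1 of the untreated libraries or of TBI replicates 1, 4 and 5 (adjusted p 0.0563 to 0.0707, edgeR). In the same libraries Nrros, another gene of the pathway and known from macrophages and microglia, had 6007 to 9995 counts in untreated and 2 and 1 in CD45 RIT, and the haematopoietic marker list summed to 1935 to 2206 CPM in untreated and to 174 and 69.2 in CD45 RIT. The macrophage marker list went another way, at 58.15 to 67.58 CPM in untreated and 55.98 and 162.4 in CD45 RIT replicates 1 and 2. Of its 8 tested genes, 4 were called higher and 2 lower in CD45 RIT, beside 14.5% and 18.6% of all genes. The part of Nrros and of these lists in the Gdf3 result was not tested. Inhba, the activin A subunit, had 18 and 977 counts in the CD45 RIT libraries and 0 to 1.54 CPM in the others. Its CD45 RIT call (adjusted p = 0.0473, edgeR) held in 3 of the 14 fits that leave out 1 library, and its groups overlapped.

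BMP and activin receptors gave 3 calls of 5 in CD45 RIT and none in TBI or IgG RIT. Bmpr1a, a type I BMP receptor, had 0.131, 1.14, 3.67 and 5.48 CPM in untreated, 0.212, 0.207, 0.620, 0.915 and 0.646 in TBI, 0.290, 0.249 and 0.683 in IgG RIT and 87.99 and 83.96 in CD45 RIT. The 2 CD45 RIT libraries nearly coincided and lay above all others, with a log2 change of 5.04 ± 1.01 (SE, edgeR adjusted p = 0.00277). The type II receptors Bmpr2 and Acvr2a were called higher as well (log2 3.59 and 3.46), but both differed over 5-fold between the CD45 RIT libraries, at 6.40 and 53.6 CPM and 9.27 and 109 CPM, and neither was called without replicate 2. Acvrl1, which encodes ALK1, the receptor for BMP9 and BMP10 on endothelial cells, had 0, 6.11, 1.94 and 3.71 CPM in untreated, 0.0354, 0, 0, 0.170 and 1.36 in TBI, 1.45, 0 and 0 in IgG RIT and 59.5 and 7.94 in CD45 RIT. It was not called against untreated (log2 3.52 ± 2.01 SE, edgeR adjusted p = 0.186), although both CD45 RIT libraries were above every untreated library. Acvr1, or ALK2, had 45.5 and 4.43 CPM in CD45 RIT against 4.51, 3.50, 1.44 and 6.83 in untreated and was not called (log2 2.62 ± 1.18 SE, edgeR adjusted p = 0.104).

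None of the 5 tested receptor-activated and common SMADs was called in CD45 RIT, and Smad1 and Smad3 fell in IgG RIT. Smad1, the main BMP SMAD, had 19.4, 30.1, 26.1 and 23.9 CPM in untreated, 7.65, 9.48, 5.63, 10.2 and 2.80 in TBI, 1.51, 2.09 and 8.94 in IgG RIT and 56.8 and 32.96 in CD45 RIT. All IgG RIT and all TBI libraries were below all untreated ones and both CD45 RIT libraries were above them, with log2 changes of -2.57 ± 0.65 (SE, edgeR adjusted p = 0.0203) in IgG RIT, -1.80 ± 0.52 (SE, edgeR adjusted p = 0.0755) in TBI and 0.85 ± 0.65 (SE, edgeR adjusted p = 0.32) in CD45 RIT. That IgG RIT call was lost without IgG RIT replicate 1 or 2. Smad3, a TGF-beta SMAD, had 2.73, 17.9, 14.9 and 16.1 CPM in untreated and 3.13, 1.54 and 3.89 in IgG RIT, where its fall of -2.17 ± 0.68 (SE, edgeR adjusted p = 0.0469) overlapped untreated replicate 1 and held in 4 of 14 fits with 1 library left out. Smad2, the other TGF-beta SMAD, had 44.6, 46.96, 43.9 and 55.2 CPM in untreated, 44.2, 39.5, 38.5, 43.9 and 21.9 in TBI, 23.8, 12.9 and 26.5 in IgG RIT and 101 and 16.4 in CD45 RIT, so that the CD45 RIT libraries fell on either side of untreated. Smad4, the common partner, had 40.2, 45.9, 62.7 and 63.2 CPM in untreated and 70.4 and 281 in CD45 RIT, both above untreated, with a log2 change of 1.73 ± 0.83 (SE, edgeR adjusted p = 0.122). Smad5, another BMP SMAD, had 1 and 1944 counts in the 2 CD45 RIT libraries and was not called in any comparison of the main fit to all 14 libraries. On the stromal scale given further on it was called lower in CD45 RIT than in IgG RIT (log2 -4.29) and TBI (-4.03).

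The inhibitory side gave 4 calls of 4 in CD45 RIT. Smad6, a BMP-induced inhibitor enriched in endothelium, had 9.77, 12.2, 2.87 and 5.82 CPM in untreated, 0.814, 0.795, 0.906, 0.983 and 0.359 in TBI, 1.33, 0.149 and 5.62 in IgG RIT and 85.9 and 157 in CD45 RIT. TBI lay below untreated throughout and CD45 RIT above, at log2 -3.29 ± 0.75 (SE, edgeR adjusted p = 0.03) and 3.99 ± 0.90 (SE, edgeR adjusted p = 0.00554). The TBI call of Smad6 held in 6 of the 14 fits with 1 library left out. Ski, a repressor that binds SMADs on DNA, had 22.6, 9.61, 5.84 and 15.7 CPM in untreated, 4.64, 2.32, 5.01, 3.86 and 1.29 in TBI, 2.08, 0.747 and 0.894 in IgG RIT and 68.5 and 333 in CD45 RIT. Its log2 change was -3.44 ± 0.74 (SE, edgeR adjusted p = 0.00966) in IgG RIT, the 1 IgG RIT call that held without each library in turn, and 3.90 ± 0.71 (SE, edgeR adjusted p = 0.00153) in CD45 RIT. Smad7, which targets the TGF-beta receptors for degradation, had 2.52, 7.15, 6.64 and 7.31 CPM in untreated, 2.43, 0.747 and 0.315 in IgG RIT and 23.9 and 38.8 in CD45 RIT, with log2 changes of -2.34 ± 0.68 (SE, edgeR adjusted p = 0.0344) and 2.41 ± 0.67 (SE, edgeR adjusted p = 0.0167). Its IgG RIT call held in 8 of 14 fits with 1 library left out, and its CD45 RIT call was lost without CD45 RIT replicate 2. Skil rose in CD45 RIT from 6.26, 5.72, 2.30 and 4.05 to 63.3 and 45.7 CPM (log2 3.57 ± 1.09 SE, edgeR adjusted p = 0.0251), a call lost without any 1 of untreated replicates 2, 3 and 4. Per kilobase, Smad6 and Smad7 together amounted to 7.54 to 19.4 for every 100 of the 6 receptor-activated and common SMADs in untreated, 4.44 to 11.3 in TBI, 5.30 to 12.7 in IgG RIT, and 75.2 and 55.1 in CD45 RIT.

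Of the 4 secreted antagonists, 3 rose in CD45 RIT, and 2 of those, Chrdl1 and Fst, fell in TBI. Chrdl1, a chordin-like protein that binds BMPs, had 42.4, 31.1, 22.2 and 56.7 CPM in untreated, 3.47, 1.04, 4.20, 0.746 and 6.61 in TBI, 9.67, 7.67 and 14.6 in IgG RIT and 1498 and 824 in CD45 RIT. The groups did not overlap in any pair, and the log2 changes were -3.59 ± 0.58 (SE, edgeR adjusted p = 0.00494) in TBI, -1.84 ± 0.65 (SE, edgeR adjusted p = 0.0705) in IgG RIT, which was not called, and 4.93 ± 0.70 (SE, edgeR adjusted p = 0.000314) in CD45 RIT. Follistatin (Fst), which binds activins, had 7.57, 36.6, 8.95 and 20.8 CPM in untreated, 3.86, 2.49, 1.00, 0.508 and 3.66 in TBI, 3.94, 2.39 and 12.2 in IgG RIT and 513 and 769 in CD45 RIT. It was called lower in TBI (log2 -3.01 ± 0.69 SE, edgeR adjusted p = 0.0292), a call lost without any 1 of untreated replicates 2 and 4 and TBI replicates 3, 4 and 5, and higher in CD45 RIT (log2 5.12 ± 0.86 SE, edgeR adjusted p = 0.000931). Gremlin (Grem1), a BMP antagonist that marks skeletal progenitors, rose from 2.33, 5.90, 4.21 and 2.74 CPM in untreated to 93.6 and 53.9 in CD45 RIT (log2 4.28 ± 0.69 SE, edgeR adjusted p = 0.00073). Noggin (Nog) was low everywhere outside CD45 RIT, at 0 to 1.83 CPM against 3.48 and 11.3, and was not called (adjusted p = 0.0916, edgeR). The summed level per kilobase of Grem1, Nog, Chrdl1 and Fst was 0.486 to 0.762 of that of Bmp2, Bmp4, Bmp5 and Bmp6 in untreated, 0.431 to 0.945 in TBI, 0.499 to 0.956 in IgG RIT, and 0.711 and 0.612 in CD45 RIT. These sums are descriptions and the ratios of all 4 groups overlapped.

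All 3 latent TGF-beta binding proteins rose in CD45 RIT. Ltbp2, an elastic-fibre protein that, unlike its relatives, does not bind latent TGF-beta, had 30.4, 28.1, 16.9 and 25.8 CPM in untreated, 4.46, 1.38, 3.53, 0.712 and 3.52 in TBI, 2.66, 5.33 and 18.98 in IgG RIT and 967 and 555 in CD45 RIT. TBI lay below and CD45 RIT above all untreated libraries, with log2 changes of -3.22 ± 0.60 (SE, edgeR adjusted p = 0.0115) and 4.91 ± 0.74 (SE, edgeR adjusted p = 0.000486). Ltbp1 and Ltbp3, which tether latent TGF-beta to the matrix, reached 174 and 316 CPM and 176 and 774 CPM in CD45 RIT, from 9.40, 10.2, 9.45 and 15.01 and 20.2, 34.4, 22.4 and 18.6 CPM in untreated (log2 4.47 and 4.31, adjusted p = 0.000708 and 4.45e-05, edgeR). Their TBI levels were below every untreated library but were not called (adjusted p = 0.179 and 0.0993, edgeR).

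The ID genes, direct BMP targets that block basic helix-loop-helix factors, all rose in CD45 RIT. Id3 had the highest level per kilobase of all members in each of the 4 groups, at a mean ± SD of 39.3 ± 14.7 CPM per kb in untreated (n = 4), 26.4 ± 9.18 in TBI (n = 5), 10.8 ± 5.98 in IgG RIT (n = 3) and 463 ± 19.3 in CD45 RIT (n = 2). By library it had 60.2, 107, 45.3 and 69.3 CPM in untreated, 57.98, 50.2, 46.2, 61.8 and 19.96 in TBI, 17.1, 9.91 and 30.96 in IgG RIT and 853 and 804 in CD45 RIT. IgG RIT lay below all untreated libraries, TBI overlapped untreated, and CD45 RIT was above all others, at log2 -1.87 ± 0.45 (SE, edgeR adjusted p = 0.0166), -0.58 ± 0.37 (SE, edgeR adjusted p = 0.475) and 3.56 ± 0.47 (SE, edgeR adjusted p = 0.000193). The IgG RIT call was lost without IgG RIT replicate 1 or 2. Id1 had 12.2, 6.79, 4.51 and 4.96 CPM in untreated and 165 and 158 in CD45 RIT (log2 4.51 ± 1.04 SE, edgeR adjusted p = 0.00649), and Id2 had 13.7, 18.5, 9.25 and 10.5 and 49.6 and 158 CPM (log2 3.00 ± 1.05 SE, edgeR adjusted p = 0.0449), a call that held in 5 of 14 fits with 1 library left out.

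The transition factors split into those that rose in CD45 RIT and the Zeb genes. Snai2, or Slug, also active in mesenchymal stromal cells, had 18.8, 28.8, 10.2 and 31.6 CPM in untreated, 2.87, 1.21, 6.54, 2.17 and 10.7 in TBI, 9.90, 6.82 and 11.5 in IgG RIT and 179.8 and 569 in CD45 RIT, with a log2 change of 4.07 ± 0.75 (SE, edgeR adjusted p = 0.00164) in CD45 RIT. Its TBI difference of -2.26 ± 0.60 (SE, edgeR adjusted p = 0.0541) was not called, and TBI replicate 6 overlapped untreated. Snai1, a repressor of cadherin genes at chr2:167538195-167542814, had 0.393, 1.23, 0.401 and 0.243 CPM in untreated and 5.30 and 22.2 in CD45 RIT, where it was called higher (log2 4.59 ± 1.13 SE, edgeR adjusted p = 0.00907) but not without CD45 RIT replicate 2. Twist1 had 1.94, 5.69, 0.835 and 1.98 CPM in untreated, 0.579, 0.299 and 0 in IgG RIT and 21.3 and 26.7 in CD45 RIT, with log2 changes of -3.15 ± 1.00 (SE, edgeR adjusted p = 0.0496) and 3.20 ± 0.94 (SE, edgeR adjusted p = 0.0217). The IgG RIT call of Twist1 held in 4 of 14 fits with 1 library left out, and its CD45 RIT call was lost without untreated replicate 3 or 4. Zeb1 had 29.9, 20.3, 24.2 and 26.1 CPM in untreated, 14.8, 16.9, 21.5, 18.2 and 21.5 in TBI, 27.3, 20.9 and 20.8 in IgG RIT and 4.51 and 32.0 in CD45 RIT, so that its CD45 RIT libraries lay on either side of the rest, and the log2 change was -0.46 ± 0.56 (SE, edgeR adjusted p = 0.534). Zeb2 had 90.8, 34.4, 68.6 and 76.6 CPM in untreated and 90.2 and 88.4 in CD45 RIT, within the untreated range, and its log2 change of 0.40 ± 0.46 (SE, edgeR adjusted p = 0.512) was not called.

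The contractile genes mark mural cells and myofibroblasts. Acta2, smooth muscle actin, had 0.0262, 0.838, 0.668 and 1.25 CPM in untreated, 0 in all IgG RIT libraries, and 4.82 and 0 in CD45 RIT, with no call. Tagln, or transgelin, rose from 0.865, 1.74, 0.935 and 1.84 CPM in untreated to 7.26 and 3.66 in CD45 RIT (log2 2.02 ± 0.64 SE, edgeR adjusted p = 0.0298), a call lost without CD45 RIT replicate 1 or untreated replicate 1 or 3, and 62.4% of its exon bases are shared with an opposite-strand gene.

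The CD45 RIT result was read again on the scale of the stromal list. The summed counts of the 14 stromal markers were taken as the library size in place of the total. This asks how each member moved against that sum, in which each marker weighs by its counts. In CD45 RIT replicates 1 and 2, Cxcl12 gave 24900 and 26900 CPM, Col1a2 8530 and 19200, and Col1a1 5440 and 13000. The sums were 50090 and 70270 CPM, so the scale rests mostly on those genes. On this scale no member was called higher in CD45 RIT than in untreated, 8 were called lower, and the members' median log2 fold change was 0.01, whereas that of all genes was -4.01. Of all genes, 0.530% were called higher and 73.2% lower on this scale. The 8 were Tgfb1 (log2 -4.63), Zeb1 (-4.36), Tgfbr1 (-3.69), Zeb2 (-3.30), Smad2 (-3.24), Smad1 (-2.85), Smad3 (-2.54) and Gdf3, which has no counts in CD45 RIT. Bmp4, Chrdl1, Id3, Ltbp2 and the other members that rose on the total-count scale were therefore not called against this sum, and 8 of the 29 changed sign. In TBI against untreated this scale called none of the 6 falls and called Gdf3 (log2 3.17) and Tagln (2.11) higher, 2 of 43 members against 30.2% of all genes. In IgG RIT it called none of the 6 falls and called Tgfb1 (1.83), Gdf3 (1.99), Ltbp3 (2.10), Zeb1 (2.43) and Tagln (2.65) higher, 5 of 43 members against 47.8% of all genes. These calls used edgeR with the same threshold, and the part of the stromal markers in the members' changes was not tested beyond this rescaling.

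**Figure D5:**
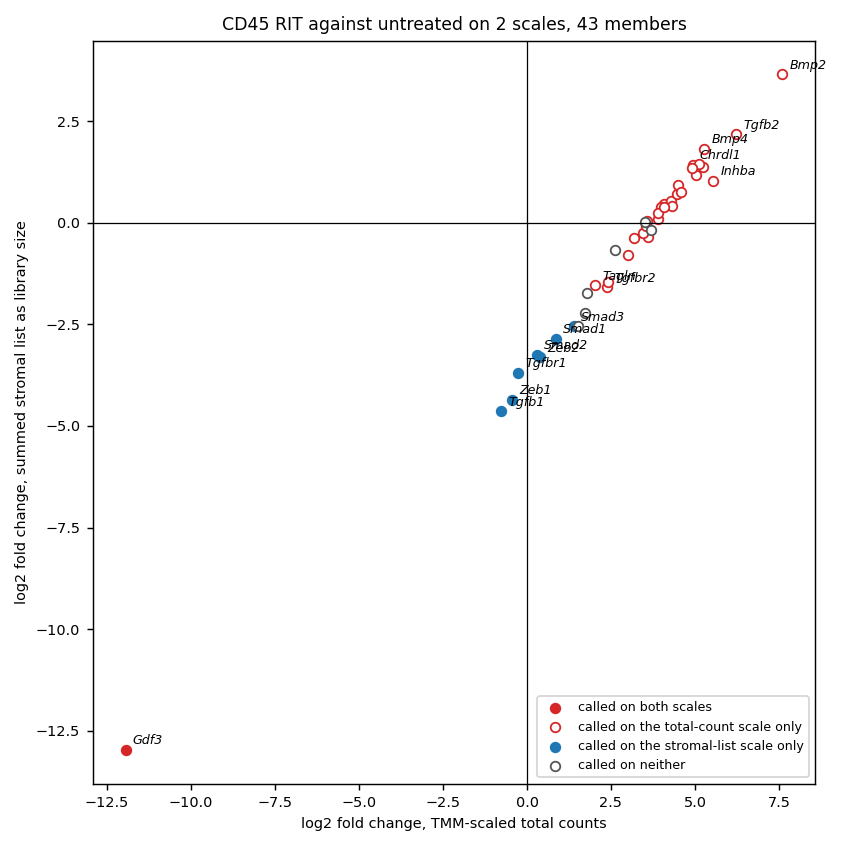
Log2 fold change of the 43 tested members in CD45 RIT against untreated with TMM-scaled total counts (x axis) and with the summed stromal list as library size (y axis). The 29 members called higher on the x axis lie between -1.58 (Tgfbr2) and 3.65 (Bmp2) on the y axis, where none is called, and the 8 filled points, Gdf3 among them, are called lower on the stromal scale.

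Against IgG RIT, the other radiolabelled antibody, 35 of the 43 members were higher in CD45 RIT and 1, Gdf3, was lower, with 37.7% of all genes called, 20.2% higher and 17.5% lower. Libraries did not overlap for 36 members higher and 1 lower, against 21.7% and 29.6% of all genes. The members' median log2 fold change was 5.42, or 5.31 with genes at the floor of 3 counts held there, and that of all genes was -0.13. Called here and not against untreated were Acvr1 (log2 4.52), Smad1 (3.42), Smad3 (3.57), Smad4 (3.83), Zeb2 (1.74), Nog and Acta2, the last 2 with 0 to 3 counts in every IgG RIT library. Leaving out 1 library ended 5 of these 7 calls. Acvr1 was lost without CD45 RIT replicate 1 (log2 2.03) or IgG RIT replicate 2 (4.23), Smad4 without CD45 RIT replicate 2 (2.37) and Zeb2 without IgG RIT replicate 3 (1.54). Nog was lost without CD45 RIT replicate 2 or IgG RIT replicate 1 or 3. Acta2 was lost with any 1 IgG RIT library left out, or without CD45 RIT replicate 1, which holds all its CD45 RIT counts. Of the members also called against untreated, Bmp2, Tgfb2, Inhba, Bmpr2 and Acvr2a lost their call against IgG RIT in at least 1 such fit. Not called were Tgfb1 (-0.04), Tgfbr1 (1.60), Acvrl1 (6.13), Smad2 (1.47), Smad5 (1.81), Zeb1 (-0.33) and Tagln (1.70). A fit to the 2 compared groups alone called 11 members, 10 higher and 1 lower, and 5.30% of all genes. Against TBI, 35 were higher in CD45 RIT and 1, again Gdf3, was lower, with 38.6% of all genes called (19.6% higher, 19.0% lower) and medians of 5.45 for members and -0.39 for all genes. Libraries did not overlap for 36 members higher and 1 lower, against 18.2% and 27.6% of all genes. Acvr1, Acvr2a, Acvrl1, Bmpr2, Inhba, Skil, Smad3, Smad4 and Tagln lost their call against TBI in at least 1 fit with 1 library left out. Smad3 lost it without CD45 RIT replicate 2 (log2 0.87) or any 1 of TBI replicates 1, 4, 5 and 6. The largest fitted rise was that of Bmp4 (9.19 ± 0.95 on the log2 scale, SE), followed by Chrdl1 (8.52 ± 0.73) and Bmp2 (8.42 ± 1.74). On the stromal scale 4 members were called higher than TBI, Bmp4 (log2 3.61), Chrdl1 (2.98), Ltbp2 (2.65) and Fst (2.65), and 12 members were called lower, against 0.730% and 82.7% of all genes. Against IgG RIT on that scale 0 were called higher and 11 lower, against 0.437% and 79.5% of all genes.

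IgG RIT and TBI differed in 1 member. Gdf3 was lower in IgG RIT (10.1, 13.1 and 14.3 CPM) than in TBI (55.9, 34.5, 64.6, 59.4 and 35.4 CPM), by a log2 change of -1.999 ± 0.32 (SE, edgeR adjusted p = 0.0333), with 0.242% of all genes called, 0.0697% higher and 0.172% lower. Libraries did not overlap for 2 members higher and 2 lower (8.37% and 8.44% of all genes). Among the other 42, Bmp4 (2.11 ± 0.75 SE, edgeR adjusted p = 0.173), Chrdl1 (1.75 ± 0.58 SE, edgeR adjusted p = 0.15) and Ltbp2 (1.73 ± 0.62 SE, edgeR adjusted p = 0.171), which fell in TBI against untreated, did not pass the test here. The Chrdl1 values of IgG RIT were all above those of TBI. The Gdf3 call held in 3 of the 14 fits with 1 library left out: those without TBI replicate 6 or either CD45 RIT library. Without TBI replicate 6, 3 members were called, and 9.39% of all genes: Chrdl1 higher (log2 2.18) and Gdf3 (-2.10) and Id3 (-1.48) lower.

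Library numbers in the labels follow the groups: untreated libraries carry 2 to 7 and RIT libraries 11 to 16, with TBI on both sides, so treatment and library number can be separated for RIT against untreated only through TBI replicate 6, which is number 10. With a term for numbers of 10 or more, CD45 RIT against untreated called 7 members, Tgfbr2 (log2 4.99), Tgfbr3 (5.00), Smad4 (5.31), Ski (5.51), Ltbp3 (4.48) and Id3 (4.99) higher and Gdf3 lower, and 40 of 43 members had a positive value. The same fit called 4.40% of all genes higher and 7.03% lower. IgG RIT against untreated called 0 members and 0.0883% of all genes with that term, and 12 of 43 members had a positive value. TBI against untreated, where the term removes TBI replicate 6 from the contrast, called 7, with Snai2 (log2 -2.81) in and Smad6 out, and 3.87% of all genes. CD45 RIT against IgG RIT, whose libraries all carry numbers above 10, called 36 members and 38.3% of all genes.

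Agreement between the 2 CD45 RIT libraries varied by member. Without replicate 1 the all-gene median log2 fold change of CD45 RIT against untreated was -1.47 in place of -0.37. Without replicate 2 it was -0.38. The members' median was 4.15 without replicate 1 and 3.06 without replicate 2. The 2 libraries lay within 2-fold of each other for 21 of the 44 members and 2-fold to 5-fold apart for 10. Tgfb2, Inhba, Bmpr2, Acvr1, Acvrl1, Acvr2a, Smad2 and Zeb1 differed by over 5-fold, and Tgfbr1, Smad5 and Acta2 had 1 library at 0 to 3 counts. Leaving out CD45 RIT replicate 1 gave 34 members called against untreated (31 higher) and 52.7% of all genes. Leaving out replicate 2 gave 27 (23 higher) and 33.5% of all genes. The remaining library is then assumed to vary like the other groups. Of the 30 calls, 19 held in all 14 fits with 1 library left out: Tgfb3, Tgfbr3, Bmp2, Bmp4, Bmp5, Bmp6, Gdf3, Bmpr1a, Smad6, Ski, Grem1, Chrdl1, Fst, Ltbp1, Ltbp2, Ltbp3, Id1, Id3 and Snai2. In TBI 3 of 7 calls did so (Bmp4, Chrdl1 and Ltbp2) and in IgG RIT 1 of 6 (Ski).

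Other genes of the pathway, 73 in a list of ligands, receptors, antagonists, latency proteins, regulators, targets and mesenchymal genes, were counted by the same rule. Of 58 tested, 7 were called in TBI, all lower, 12 in IgG RIT, 2 higher and 10 lower, and 33 in CD45 RIT, 31 higher and 2 lower. These are 12.1%, 20.7% and 56.9% of the 58, beside 4.31%, 16.4% and 33.1% of all genes. The IgG RIT share is near its background. In TBI, Pmepa1, a TGF-beta target that dampens signalling, had a mean of 0.918 CPM against 9.23 in untreated (log2 -3.34 ± 0.42 SE, edgeR adjusted p = 0.00147), and Fbn1 (fibrillin, log2 -2.58) and Id4 (-2.56) fell too. In IgG RIT, the stress-induced ligand Gdf15 was higher (7.60 CPM against 0.332, log2 4.50 ± 1.16 SE, edgeR adjusted p = 0.0224) and so was Tpm1, a tropomyosin (log2 0.98), while Tgif1, a SMAD co-repressor (-4.92), vimentin (Vim, -3.20) and Nrros (-2.86) fell. In CD45 RIT, Gdf15 rose to a mean of 18.4 CPM (log2 5.77), Fstl1, a follistatin-like protein, from 46.7 to 1540 CPM (5.04), and N-cadherin (Cdh2) from 10.2 to 328 CPM (5.01), and Nrros fell to 2 and 1 counts.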

How the data were processed

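RNA was extracted from sorted marrow cells and libraries were made with SMART-Seq v4 and Nextera XT, per the labels' protocols. These carry no molecular identifiers, so counts are of reads. The authors deposited a table of whole-number counts per gene, whose symbols, identifiers and coordinates are mouse (GRCm38). The submitters' processing notes list STAR 2.7.7a, FastQC 0.11.9 and edgeR 3.36.0 without their roles, and name a human build; the counter and its strand setting are not given in the sources used here. The 14 columns were matched to samples by library name, with 0 columns unmatched.

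The counts were analysed with edgeR 4.0.16 in R 4.3.3 (limma 3.58.1): TMM factors, a filter by group (minimum count 10, total 15), 1 robust quasi-likelihood fit to all 14 libraries and 6 contrasts, with Benjamini-Hochberg adjustment over all genes tested and a threshold of 0.05. SE was taken from each estimate and its quasi-likelihood F. CPM uses the TMM-scaled library size. A floor of 3 counts per library bounds folds against groups at 0, and floors cover counting error only. All members may be named; of the other pathway genes, each contrast names up to 3 called rises and 3 called falls, by size, among genes whose log2 CPM averages 1 or more. The members and lists were chosen with earlier results of these data known. Alternatives were RLE factors, no scaling, no filter, DESeq2 1.42.0, the replicate number as a block, a library-number term, the stromal list as library size, fits to 2 groups and leaving out each library. On simulated counts with 200 changed genes the test recovered 94 in TBI, 67 in IgG RIT and 68 in CD45 RIT against untreated. Of the genes changed 32-fold, 69%, 56% and 55% were recovered, and of those changed 4-fold, 25%, 11% and 13%. A 4-fold change was thus mostly missed.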

Additional observations from a re-analysis of the deposited data

Results flagged for a closer look

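In groups of 4 or 5 libraries, the lowest or highest value of each tested member was compared with the gap expected for a single stray value. Of 86 such groups 7 were flagged, and chance flags about 1 in 20. In untreated replicate 1, Smad3 was at 2.72 CPM against 14.9 to 17.9 in the other untreated libraries, and Smad7 was at 2.52 against 6.64 to 7.31. In TBI replicate 6, 5 members were far below the other TBI libraries: Smad2 at 21.9 CPM (others 38.5 to 44.2), Smad4 at 2.37 (24.7 to 33.0), Smad5 at 4.88 (13.8 to 17.3), Smad6 at 0.359 (0.795 to 0.983) and Id3 at 20.0 CPM (46.2 to 61.8).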

How the results depend on the processing

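The direction of the members as a set, higher in CD45 RIT and mostly lower in TBI and IgG RIT, held for the median with RLE factors, no scaling factors, no filter, DESeq2, the block, the library-number term and the 2-group fits, and not with the stromal list as library size. Of the counts that moved by over 1.5 times, all values follow, and the cause of each was not tested. With RLE factors, members called were 3 (IgG RIT against untreated, where 15.4% of all genes were called). With no scaling factors, members called were 16 (IgG RIT against untreated, where 23.5% of all genes were called). With no scaling factors, other pathway genes called were 20 (IgG RIT against untreated) and 1 (IgG RIT against TBI). With no scaling factors, all genes called were 203 (IgG RIT against TBI). With no filter on low counts, members called were 3 (IgG RIT against untreated, where 7.16% of the 36497 genes then tested were called). With DESeq2, members called were 12 (TBI against untreated), 11 (IgG RIT against untreated) and 3 (IgG RIT against TBI). With DESeq2, other pathway genes called were 13 (TBI against untreated) and 4 (IgG RIT against TBI). With DESeq2, all genes called were 2485 (TBI against untreated), 5942 (IgG RIT against untreated) and 2097 (IgG RIT against TBI). With the replicate number as a block, members called were 1 (TBI against untreated), 2 (IgG RIT against untreated), 15 (CD45 RIT against untreated), 20 (CD45 RIT against TBI) and 0 (IgG RIT against TBI). With the replicate number as a block, other pathway genes called were 1 (TBI against untreated), 16 (CD45 RIT against untreated), 20 (CD45 RIT against TBI) and 1 (IgG RIT against TBI). With the replicate number as a block, all genes called were 38 (TBI against untreated), 2063 (IgG RIT against untreated), 4062 (CD45 RIT against untreated), 5098 (CD45 RIT against IgG RIT) and 3756 (CD45 RIT against TBI). With the library-number term, members called were 0 (IgG RIT against untreated), 7 (CD45 RIT against untreated), 23 (CD45 RIT against TBI) and 0 (IgG RIT against TBI). With the library-number term, other pathway genes called were 0 (IgG RIT against untreated), 9 (CD45 RIT against untreated) and 20 (CD45 RIT against TBI). With the library-number term, all genes called were 19 (IgG RIT against untreated), 2458 (CD45 RIT against untreated), 4525 (CD45 RIT against TBI) and 0 (IgG RIT against TBI). With the stromal list as library size, members called were 2 (TBI against untreated), 8 (CD45 RIT against untreated), 11 (CD45 RIT against IgG RIT), 16 (CD45 RIT against TBI) and 0 (IgG RIT against TBI). With the stromal list as library size, other pathway genes called were 15 (CD45 RIT against untreated), 21 (CD45 RIT against IgG RIT) and 20 (CD45 RIT against TBI). With the stromal list as library size, all genes called were 6562 (TBI against untreated), 10589 (IgG RIT against untreated), 15859 (CD45 RIT against untreated), 17200 (CD45 RIT against IgG RIT), 17952 (CD45 RIT against TBI) and 1 (IgG RIT against TBI). Fitted on the 2 compared groups only, members called were 16 (TBI against untreated) and 11 (CD45 RIT against IgG RIT). Fitted on the 2 compared groups only, other pathway genes called were 18 (TBI against untreated), 19 (IgG RIT against untreated), 14 (CD45 RIT against IgG RIT) and 1 (IgG RIT against TBI). Fitted on the 2 compared groups only, all genes called were 3234 (TBI against untreated), 6457 (IgG RIT against untreated), 3850 (CD45 RIT against untreated), 1141 (CD45 RIT against IgG RIT) and 509 (IgG RIT against TBI). Whether replicate numbers pair the libraries is not known here. Of 13 same-number pairs, 1 had deviations correlated over 0.1 (-0.0896 to 0.139). This check cannot exclude pairing, as the deviations of the 2 CD45 RIT libraries are exact opposites. Whether the calls lost under that block are weaker effects was not tested. In CD45 RIT against untreated the median of all genes moved by -0.71 (log2) with no scaling factors and by -1.1 without CD45 RIT replicate 1, which also moved it by -1.01 against IgG RIT and -1.04 against TBI.

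Leaving out each of the 14 libraries in turn gave these ranges. Members called ranged over 3 to 12 (TBI against untreated), 2 to 14 (IgG RIT against untreated), 26 to 34 (CD45 RIT against untreated), 32 to 37 (CD45 RIT against IgG RIT), 32 to 37 (CD45 RIT against TBI) and 0 to 3 (IgG RIT against TBI). Other pathway genes called ranged over 2 to 15 (TBI against untreated), 6 to 22 (IgG RIT against untreated), 27 to 38 (CD45 RIT against untreated), 34 to 41 (CD45 RIT against IgG RIT), 36 to 42 (CD45 RIT against TBI) and 0 to 9 (IgG RIT against TBI). All genes called ranged over 410 to 3021 (TBI against untreated), 1769 to 7484 (IgG RIT against untreated), 5839 to 11327 (CD45 RIT against untreated), 6354 to 12031 (CD45 RIT against IgG RIT), 6979 to 11967 (CD45 RIT against TBI) and 2 to 2269 (IgG RIT against TBI). In TBI against untreated, the 3 members came without untreated replicate 2 or 4 or TBI replicate 4 or 5. Those fits called 1.91%, 2.51%, 2.47% and 2.15% of all genes. The largest member count came without either CD45 RIT library, and the largest all-gene count without CD45 RIT replicate 2. In IgG RIT against untreated, the 2 members came without IgG RIT replicate 2, where 8.83% of all genes were called. There the largest counts of members and of all genes both came without CD45 RIT replicate 1. Values called against untreated that changed sign did so with the stromal list as library size. In IgG RIT against untreated the log2 fold changes became 0.02 for Smad3 and 0.51 for Id3. In CD45 RIT against untreated the log2 fold changes became -1.58 for Tgfbr2, -0.36 for Bmpr2, -0.25 for Acvr2a, -1.45 for Smad7, -0.78 for Id2, -0.07 for Id3, -0.37 for Twist1 and -1.54 for Tagln. Against IgG RIT, members called higher in CD45 RIT that changed sign on that scale included Acvr1 (log2 -1.23), Smad1 (-2.54) and Smad3 (-2.56). Smad4 (-2.25), Tgfbr2 (-2.21) and Zeb2 (-4.51) did so too. Against TBI they included Tgfbr2 (-2.33), Smad3 (-3.72), Smad4 (-2.73) and Tagln (-3.65). The 2 CD45 RIT libraries that correlate at 0.673, and 3 counts as the floor, limit what the CD45 RIT values of low members can show. A check for missing DESeq2 adjusted p covered every edgeR call against untreated and only some values of the other comparisons. In it, DESeq2 gave no adjusted p for 6 member values that edgeR called with all 14 libraries. They are left out of its lost calls and count as not called in its totals. These were Bmp4 in TBI against untreated, CD45 RIT against untreated and CD45 RIT against TBI. The others were Tgfb3, Skil and Id2 in CD45 RIT against untreated.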
